A study of Mus musculus with 15 samples.

Results

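Endothelial cells line the blood vessels, and here they are the cells of the deposited class other whose endothelial transcripts outnumber their mural and fibroblast transcripts. The data are single-cell RNA counts from the striatum of 15 male C57BL/6J mice bought at 8 weeks of age. The labels give 5 placebo mice, 5 haloperidol mice with implanted pellets and 5 olanzapine mice with drug in the food, treated for 28 to 29 days. Haloperidol and olanzapine are antipsychotic drugs, and the labels used here give no dose and no form of the placebo. Cells were released from brain slices by trituration, dead cells were removed, and each mouse filled its own well of a 10x Genomics 3′ kit, in which each captured transcript is counted once as a unique molecular identifier (UMI).

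Members were chosen from measured values. For each cell, E summed the UMIs of Cldn5, Flt1, Pecam1, Ly6c1 and Itm2a, M summed those of Acta2, Tagln, Myh11, Kcnj8, Vtn and Higd1b, and F summed those of Dcn, Col1a1, Col1a2 and Lum. A cell of the class other with E of 3 or more, and with E above both M and F, was taken as endothelial. After the filters on cells, 299 such cells were left among 524 of the class other and 5476 cells in all; 310 of the 5581 deposited cells met the rule. Of the other kept cells of the class, 194 were mural, 29 were fibroblast by the same sums and 2 were neither. The 15 genes of these sums are described below. They took part in the fits over all genes, but no test of them is given as a result.

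Brain endothelium differs from that of most organs because its cells seal their contacts with tight junctions, suppress vesicle transport and carry nutrients through dedicated transporters, which together form the blood-brain barrier. Along a vessel the cells change in a graded way from arteries through capillaries to veins, and each zone has its own genes. Pericytes and smooth muscle cells, jointly called mural cells, wrap the endothelial tube and share its basement membrane, so the preparations of one often hold RNA of the other.

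Libraries were not all independent. Among the 5581 deposited cells, 229 pairs of cells in different mice carried the same barcode, and 211 of these pairs joined placebo 5 with placebo 3 (110 barcodes) or with placebo 2 (101 barcodes). In the 2 large overlaps, 109 of 110 and all 101 pairs had the same deposited class. The median correlation of log counts between cells of a pair was 0.689 with placebo 3 and 0.71 with placebo 2, against 0.448 and 0.472 for a different cell of the same class. Of the 36 endothelial cells of placebo 5, 15 shared a barcode with an endothelial cell of placebo 2 and 3 with one of placebo 3. The median UMI count of the 15 was 3054 in placebo 5 and 9852 in placebo 2. Placebo mice 2, 3 and 5 are therefore not fully separate samples, and tests over 5 placebo mice count them as if they were. The main results are given with all cells and again without the shared cells.

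**Figure D1:**
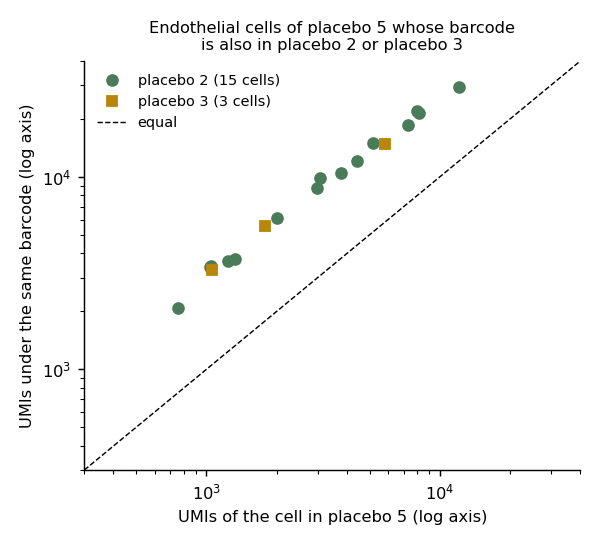
Each point is an endothelial cell of placebo 5 whose barcode also occurs in placebo 2 (15 circles) or placebo 3 (3 squares); the horizontal axis gives its UMIs in placebo 5 and the vertical axis its UMIs under the same barcode in the other mouse, both on log axes. All 18 points lie above the dashed line of equal counts.

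Doublets called by the Scrublet program also bear on the counts. It marked 82 cells, or 1.47%, and 38 of them came from the 128 cells of olanzapine 2, where its threshold was 0.0348 and where all 8 endothelial cells were marked. The endothelial cells numbered 34, 23, 10, 29 and 36 in the placebo mice, 2, 5, 36, 31 and 10 in the haloperidol mice, and 1, 0, 46, 16 and 20 in the olanzapine mice. The 11 mice with at least 10 of them (5 placebo, haloperidol 3 to 5, olanzapine 3 to 5) entered the tests of gene expression. The members of all mice together held 1028997 UMIs. A member had a median of 1992 UMIs (range 645 to 29154) and 1165 genes.

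Few cells lay near the limits of the rule. Members had a median E of 48 UMIs (3 to 354), and their medians of M and F were 0. E was exactly 3 in 5 members, with a median of 779 UMIs in all, and no cell of the class with E of 2 lay just outside. Another 43 cells of the class had E of 3 or more but did not exceed M or F, and 20 kept cells of other classes met the sums. M and F were both 0 in 219 members, while 39 members had M of 10 or more. These 39 held a median of 7982 UMIs, against 1774 in the other 260 members and 2542 in mural cells.

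**Figure D2:**
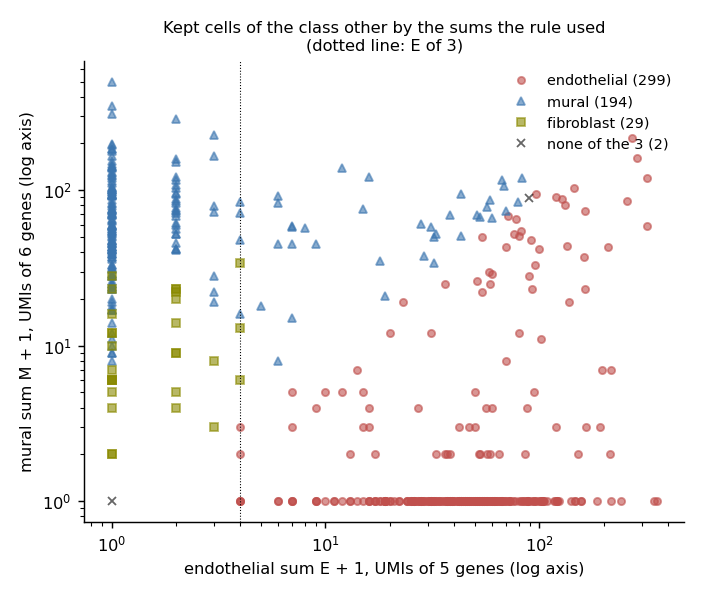
Each point is a kept cell of the class other, with the endothelial sum E plus 1 on the horizontal axis and the mural sum M plus 1 on the vertical axis, both log axes in UMIs; colours give the kind of cell by the rule and the dotted line marks E of 3. Most of the 299 endothelial cells lie on the line of M of 0, and 39 of them have M of 10 or more.

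Genes outside the rule fitted the endothelial name. A UMI of Slc2a1, which encodes the glucose transporter of the barrier, was found in 97% of members, against 27.4% of astrocytes and 8.02% of microglia. Slco1a4, an organic anion transporter, was found in 89.3% of members and 0.312% of astrocytes. Abcb1a, the drug efflux pump P-glycoprotein, was found in 78.9% against 0.125%, and Cdh5, the adherens junction cadherin of endothelium, in 51.2% against 0.125%. Mural cells, the nearest kind in the class, held more of them than astrocytes did for Slco1a4 (14.95%), Abcb1a (10.3%) and Cdh5 (7.22%). Slc2a1 was found in 19.6% of mural cells. Median depths were 1992 UMIs in members and 2228 in astrocytes, so depth does not favour the members. Of 20 core endothelial genes outside the rule, all were in the table and 19 passed the filter on low counts. These shares are a description, since how the deposited classes were made is known only in part.

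Levels are given as CPM, a gene's share of all UMIs in a mouse's endothelial cells, written as the usual counts-per-million value, after scaling libraries by TMM. Since each transcript is counted at its 3′ end they need no correction for length. Summed levels of gene lists, given below, leave out the genes of the rule and are not scaled by TMM. They are therefore not on quite the same scale as single genes. Over the 11 mice, the highest mean level outside ribosomal and mitochondrial genes belonged to Malat1, a nuclear non-coding RNA, at 47210 CPM. Bsg, or basigin, a membrane glycoprotein of barrier endothelium, followed at 17590 CPM and Tmsb4x, an actin-binding thymosin, at 9984 CPM. Of the rule genes, Cldn5, the main claudin of brain tight junctions, had 6446 CPM, Ly6c1 5805, Itm2a 4093, Flt1 2045 and Pecam1 517 CPM. The mural gene Vtn reached 1029 CPM and Higd1b 405 CPM in the same cells, while Col1a1 and Lum were at 0 in all 11 mice.

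Some arterial and venous genes were found mostly in different members, while the whole lists overlapped. A UMI of both the arterial and the venous list was found in 137 of 299 members, of the arterial list alone in 68 and of the venous list alone in 57. In the 252 members with at least 1000 UMIs, thinned to that depth, the counts were 60, 97 and 51. The whole lists are not particular to endothelial cells. Without thinning, a UMI of the arterial list was in 68.6% of members, 74.2% of mural cells, 99% of astrocytes and 13.1% of microglia. For the venous list these shares were 64.9, 64.4, 50.5 and 86.6%. Gkn3, a secreted protein known as a marker of brain arteries, had a UMI in 63 of the 299 members, and Slc38a5, an amino acid transporter known from the venous and capillary side, in 99. Only 7 members had both, so that 11.1% of the Gkn3-positive cells carried Slc38a5, against 33.1% of all members. Lcn2, the siderophore-binding protein lipocalin 2, was found in 27 members, and no member held it together with Gkn3. It shared 21 of its 27 cells with Slc38a5. Bmx, a tyrosine kinase gene of arterial endothelium, occurred in 42 members, of which 29 had Gkn3 and 5 had Slc38a5. Mgp, a matrix protein, occurred in 51 of the 63 Gkn3-positive cells. It was also found in 67% of mural cells, against 28.4% of members.

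Vwf, the platelet-binding factor made by endothelium of large vessels, did not follow this division. It was found in 92 members, in 34 of the 63 with Gkn3, in 30 of the 42 with Bmx and in 44 of the 99 with Slc38a5. A UMI of Gkn3, Slc38a5, Vwf or Lcn2 was found in at most 0.187% of astrocytes and 0.113% of microglia, at median depths of 2228 and 3407 UMIs. In mural cells the shares were 3.09, 3.09, 3.61 and 0.516%, in the same order. Mfsd2a, a lipid transporter of capillaries, was found in 38.8% of members but also in 33.1% of astrocytes. It was present in 36.5% of the Gkn3-positive and 44.4% of the Slc38a5-positive members. These overlaps were not tested, and deeper cells show more genes of every kind.

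Gkn3 and Slc38a5 rested on few cells. The 10% of members richest in a gene held 87.4% of the Gkn3 UMIs and 73.7% of the Slc38a5 UMIs. Among the 10 genes of the capillary list this share ran from 36.3% for the chemokine Cxcl12 to 64.7% for Tfrc. It was 52.8% for Edn1 of the arterial list. A gene found in fewer cells has a larger such share, and 21.1% of members held Gkn3 against 73.2% for Cxcl12. One cell of olanzapine 3 held 124 Gkn3 UMIs, and one of placebo 2 held 73 of that mouse's 143 Lcn2 UMIs.

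The share of endothelial cells among all kept cells was lowest in the olanzapine mice, and no difference passed the test. It was 7.64, 13.9, 3.7, 8.45 and 7.03% in the placebo mice, 1.64, 5.49, 5.79, 7.75 and 4.46% in the haloperidol mice, and 1.43, 0, 3.92, 4.29 and 3.47% in the olanzapine mice. Placebo 2 is the highest and only placebo 3 lies within the range of the olanzapine mice. The share was 8.15% ± 3.7 (SD, n = 5) in placebo, 5.03% ± 2.24 in haloperidol and 2.62% ± 1.84 in olanzapine. In exact two-sided permutation tests over the mice, olanzapine differed from placebo with p = 0.0238 and adjusted p = 0.0714, haloperidol from placebo with p = 0.143 (adjusted 0.143) and the 2 drugs from each other with p = 0.103 (adjusted 0.143). Adjustment was over these 3 comparisons, and the smallest p that 5 against 5 mice allow is 0.00794.

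The zero of olanzapine 2 came from the doublet calls. It counted 0 of 90 kept cells, which allows a share of up to 3.33% when 3 cells are taken as the limit of a count of 0 (the Wilson upper limit is 4.09%), whereas 8 of its 128 deposited cells met the rule, or 6.25%. With doublets kept, the olanzapine mean was 4.31% ± 1.12 and the exact permutation p against placebo 0.0397 (adjusted 0.119, n = 5 against 5). Without any shared cell the exact permutation p for olanzapine against placebo was 0.00794, the smallest possible, and 0.0238 after adjustment. Without the 4 mice with under 150 cells it was 0.107 by the same exact test. Single shares carry 95% Wilson intervals, for example 9.47 to 20.1% for placebo 2 and 2.95 to 5.2% for olanzapine 3, which cover counting error only.

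**Figure D3:**
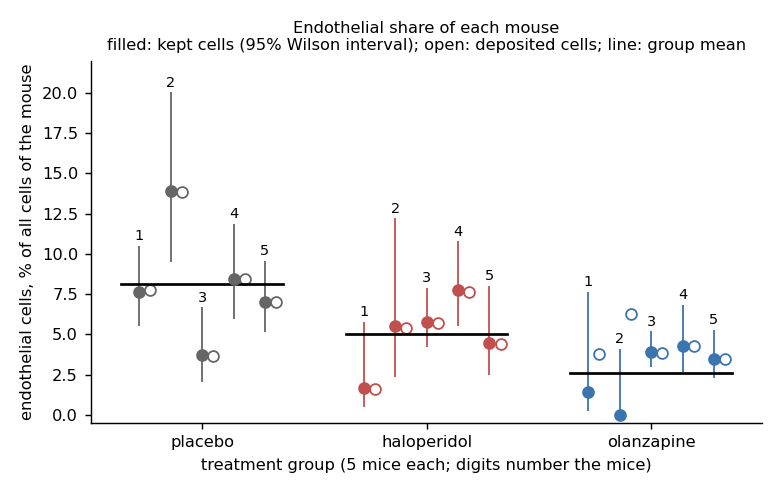
The vertical axis gives the endothelial cells of each mouse in percent of all its cells, by treatment group; filled points are kept cells with their 95% Wilson interval, open points are deposited cells, lines are group means of 8.15, 5.03 and 2.62%, and digits number the mice. Filled and open points lie apart in olanzapine 1 and 2, and placebo 2 lies highest at 13.9%.

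Within the endothelial cells, a single gene passed the test in the comparisons with placebo, out of 2035 genes that passed the filter on low counts and held 76.1% of the members' UMIs. The test was edgeR's quasi-likelihood test on counts summed per mouse, with Benjamini-Hochberg adjusted p under 0.05. For haloperidol against placebo it called 0 genes (percent called 0), with 163 at an unadjusted p under 0.05, and DESeq2 also called 0. For olanzapine it called 1 gene, 0.0491% of those tested, with 225 at an unadjusted p under 0.05, and DESeq2 also called 1. For haloperidol against olanzapine it called 0 (percent called 0), with 103 at an unadjusted p under 0.05, and DESeq2 called 0. About 102 genes would fall under an unadjusted 0.05 by chance in each. The mice of the 2 groups did not overlap for 129 genes (6.34%), 145 genes (7.13%) and 221 genes (10.9%) in the same order. The last share compares 3 with 3 mice, which can be split in 20 ways, and the others 3 with 5, in 56 ways. Groups of 3 and 3 therefore separate by chance more often, and the last share is not comparable with the others. Without the shared cells of placebo 5, 1632 genes were tested and 0 were called in each comparison, with 110, 138 and 85 at an unadjusted p under 0.05. In all cells of the class other, mural cells and fibroblasts included, edgeR called 2 (0.0625%), 10 (0.312%) and 0 genes.

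The called gene was Dbp (chromosome 7, 45705088 to 45710203, plus strand, GENCODE M21 on GRCm38), a transcription factor driven by the circadian clock. Its level was 58.5, 33.9, 28, 0 and 24.6 CPM in placebo mice 1 to 5, 26.6, 83.4 and 97.7 CPM in haloperidol mice 3 to 5, and 186, 171 and 337 CPM in olanzapine mice 3 to 5. All 3 olanzapine mice lie above the other 8. Its log2 fold change in olanzapine against placebo was 2.80 ± 0.53 (SE), with an adjusted p of 0.0398 in edgeR's quasi-likelihood test. Under haloperidol it was 0.79 ± 0.72, and between haloperidol and olanzapine -2.01 with an adjusted p of 0.71.

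Dbp rests on 79 UMIs in all. They came from 14 of 46, 4 of 16 and 7 of 20 members in the olanzapine mice, and from 6 of 34, 5 of 23, 1 of 10, 0 of 29 and 2 of 36 in the placebo mice. A UMI of Dbp was found in 41.7% of astrocytes, in 9.02% of microglia and in 38.7% of mural cells, and the part of their RNA in the result was not tested. Summed markers in placebo and olanzapine members were 641 to 1464 and 434 to 869 CPM for astrocytes, 2452 to 4812 and 1137 to 1699 CPM for pericytes, and 2236 to 3179 and 1340 to 3281 CPM for microglia. In astrocytes of the same mice the olanzapine log2 fold change was 0.82 with an adjusted p of 0.999, and the difference between the 2 cell types was 2.05 ± 0.45, with an adjusted p of 0.00364 by edgeR. In mural cells it was 4.58 with an adjusted p of 0.508, and the members differed from them by -0.82 ± 1.44 (adjusted p 0.906). Without the shared cells of placebo 5 the fold change in members was 2.82, with an adjusted p of 0.201, and the difference from astrocytes kept an adjusted p of 0.00761. The call in members was also lost when placebo 2, placebo 5, olanzapine 3 or olanzapine 5 was left out alone (adjusted p 0.173, 0.218, 0.311 and 0.227). In all cells of the class other the call was lost too (edgeR adjusted p 0.113). No value for Dbp came from the fit on members with M and F of 0. Over all settings with a value the adjusted p ranged from 3.78e-05 to 0.653. The difference from astrocytes lost its call when placebo 2, olanzapine 3 or olanzapine 5 was left out (adjusted p 0.0961, 0.0588 and 0.0987).

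No other clock gene had enough counts to be tested. Of 17 clock genes, the summed level was 321 to 515 CPM in the placebo mice, 379 to 617 in the haloperidol mice and 637 to 1057 in the olanzapine mice. Nr1d1, a clock repressor, was at 22.8 to 102 CPM in placebo and 68.4 to 112 CPM in olanzapine members, so those 2 groups overlap. Arntl, the activator of the clock, was at 14.6 to 62.1 CPM in placebo members and at 20.6, 0 and 0 CPM in olanzapine members. The labels used here name no time of day for the collection of tissue.

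Most tested genes of the venous list had lower levels in both drugs than in placebo, none past the test. The list includes Vwf, which was also found in 30 of the 42 members with the arterial gene Bmx. Of 7 tested venous genes, 6 were lower under haloperidol and 6 under olanzapine, with median log2 fold changes of -0.94 and -1.18, beside medians of -0.01 and 0.00 over all tested genes. Both comparisons use the same placebo mice. Vwf and Slc38a5 were known from an earlier look at the whole class other and are not independent evidence. The list medians of -0.94 and -1.18 are the values of Slc38a5 itself, so they are not independent either. The list's medians were -0.90 and -1.18 without the shared cells of placebo 5, and -0.88 and -1.81 in members with M and F of 0. In these members the medians are the values of Slc38a5 under haloperidol and of Vwf under olanzapine.

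Vwf was at 300, 452, 979, 262 and 517 CPM in the placebo mice, 249, 153 and 244 CPM in the haloperidol mice and 199, 137 and 150 CPM in the olanzapine mice. All 6 drug mice lie below all 5 placebo mice, in a background of 6.34% of tested genes without overlap for haloperidol and 7.13% for olanzapine. The log2 fold changes were -1.12 ± 0.37 and -1.40 ± 0.38, with edgeR adjusted p of 0.547 and 0.163. With no cell shared between libraries at all, which leaves placebo 1, 4 and 5, they were -0.35 and -0.60. In each placebo mouse a single cell held 36.5 to 74.3% of the Vwf UMIs, the most in placebo 3 with 26 of 35. In members thinned to 1000 UMIs, the share with a UMI of Vwf was 7.69, 8.70, 22.2, 4.76 and 13.3% in the placebo mice, 14.7, 7.41 and 12.5% in the haloperidol mice and 21.1, 16.7 and 5.88% in the olanzapine mice. These shares overlap between all groups.

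Slc38a5 was at 395, 480, 699, 649 and 493 CPM in the placebo mice, 382, 153 and 244 in the haloperidol mice and 220, 445 and 112 in the olanzapine mice. Only olanzapine 4 reaches the placebo range. Its log2 fold changes were -0.94 ± 0.33 and -1.18 ± 0.34 (edgeR adjusted p 0.547 and 0.163). Nr2f2, the transcription factor that sets venous identity, had log2 fold changes of -1.37 ± 0.51 and -1.47 ± 0.51, with 102 to 197 CPM in placebo members. It was found in 46.9% of mural cells against 14.7% of members, and the part of mural RNA in it was not tested.

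Lcn2 varied widely between mice of a group. It was at 14.6, 807, 839, 68.3 and 443 CPM in the placebo mice, 1509, 0 and 97.7 in the haloperidol mice and 6.87, 0 and 0 in the olanzapine mice. A single UMI was counted in the olanzapine members and 235 in the placebo members, a ratio of rates of 0.0108 with an exact 95% interval of 0.000272 to 0.0608 for counting error. The difference did not pass the test (edgeR adjusted p 0.484).

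The tested arterial genes had higher levels under olanzapine, again with none past the test. All 10 tested arterial genes were higher under olanzapine than placebo, at a median of 1.04 in log2 fold change, and 7 of 10 were higher under haloperidol, at a median of 0.27. In members with M and F of 0, 5 were tested and the medians were 1.66 and 0.57. They were 1.02 and 0.33 over 7 genes without the shared cells of placebo 5. Gkn3 was at 1118, 141, 588, 205 and 254 CPM in the placebo mice, 71, 598 and 2737 in the haloperidol mice and 2736, 171 and 2113 in the olanzapine mice. Its groups overlap, and its log2 fold change of 1.97 ± 1.07 under olanzapine reflects 2 of 3 mice. Vegfc, a vascular growth factor, had log2 fold changes of 2.04 ± 0.74 under haloperidol and 2.31 ± 0.68 under olanzapine (edgeR adjusted p 0.547 and 0.163).

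Clu is on the arterial list but is far more common in astrocytes, of which 98.8% held a UMI against 15.7% of members. It was at 364, 103 and 93.5 CPM in the olanzapine mice and at 22.8 to 124 CPM in the placebo mice. Capillary genes were higher in 9 of 10 cases under olanzapine and 7 of 10 under haloperidol, with medians of 0.36 and 0.44. In members with M and F of 0 these medians were 0.042 and 0.17, and without the shared cells of placebo 5 they were 0.30 and 0.32. Mfsd2a had log2 fold changes of 1.03 ± 0.40 under haloperidol and 0.63 ± 0.43 under olanzapine.

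**Figure D4:**
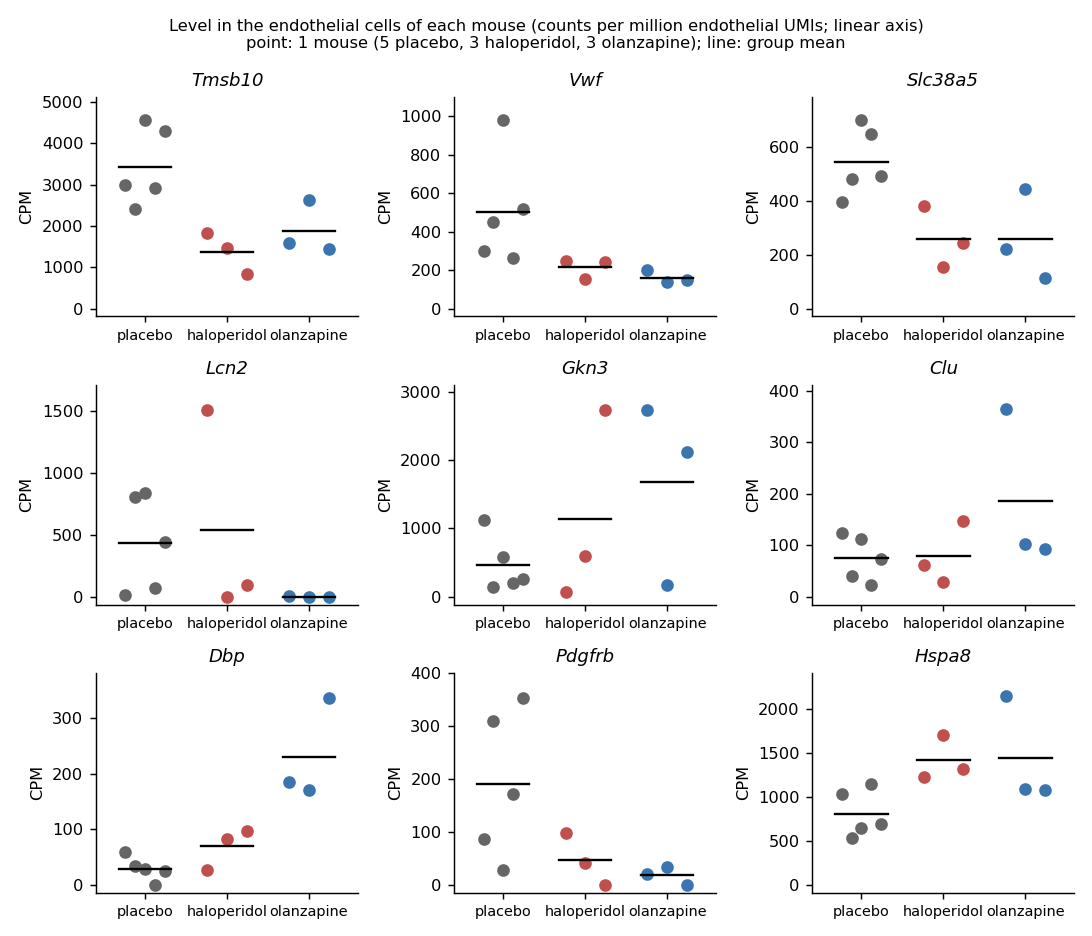
Each panel gives the level of 1 gene in the endothelial cells of each mouse in CPM on a linear axis that includes 0; points are mice (5 placebo, 3 haloperidol, 3 olanzapine) and lines are group means. Vwf lies below the placebo range in all 6 drug mice, Dbp is highest in the 3 olanzapine mice, and Lcn2 and Gkn3 spread widely within groups.

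Tmsb10 (chromosome 6, 72957347 to 72958748), an actin-binding thymosin, did not pass the test in either drug. It was at 2981, 2416, 4560, 2905 and 4286 CPM in the placebo mice, 1820, 1473 and 831 in the haloperidol mice and 1588, 2634 and 1440 in the olanzapine mice. The haloperidol mice lie below all placebo mice, and olanzapine 4 overlaps them. The log2 fold changes were -1.24 ± 0.26 and -0.88 ± 0.26, with edgeR adjusted p of 0.0984 and 0.163. Without the shared cells of placebo 5 they were -1.17 and -0.81 (adjusted p 0.374 and 0.321). Tmsb10, like Vwf and Slc38a5, was known from earlier results on the class other.

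Tmsb10 UMIs were also concentrated, with 65.6% in the 10% of members richest in it and 264 in one cell of placebo 1. The gene is not particular to members. It was found in 71.9% of members, 70.6% of mural cells, 50.1% of microglia and 12% of astrocytes. In astrocytes 89.2% of its UMIs lay in the richest 10% of cells. In astrocytes of the same mice its haloperidol log2 fold change was 1.00 (adjusted p 0.839). The effect in members differed from that in astrocytes by -2.28 ± 0.36, with an edgeR adjusted p of 6.07e-06, and without the shared cells of placebo 5 by -2.25, with 4.89e-06. Without haloperidol 5 the adjusted p of this difference was 0.121.

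No gene of the barrier passed the test in the comparisons with placebo. Of 23 tested transport genes of the barrier, 0 were called, 14 were higher under haloperidol and 19 under olanzapine, with medians of 0.24 and 0.28 (0.070 and 0.28 without the shared cells of placebo 5). Without any shared cell the haloperidol median turned to -0.099, with 9 genes higher and 13 lower. The direction was not particular to transport genes. Of 19 tested core endothelial genes, 12 were higher under haloperidol (median 0.11) and 17 under olanzapine (median 0.22), with 0 called. Slc2a1 was at 2594, 2122, 2154, 1720 and 1855 CPM in placebo mice, 3995, 3294 and 2150 in haloperidol mice and 3148, 2121 and 3179 in olanzapine mice, with log2 fold changes of 0.62 ± 0.20 and 0.45 ± 0.21. Slco1c1, a thyroid hormone transporter, was at 435 to 699 CPM in placebo mice, 826, 778 and 1173 in haloperidol mice and 1127, 924 and 711 in olanzapine mice. Every drug mouse lies above every placebo mouse, with log2 fold changes of 0.67 ± 0.23 and 0.75 ± 0.22 (edgeR adjusted p 0.547 and 0.163). Its haloperidol effect differed from that in astrocytes by 1.28 ± 0.28 (adjusted p 0.00865, and 0.0852 without the shared cells of placebo 5). The adjusted p was 0.246 without placebo 1 and 0.170 without haloperidol 3.

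Tight and adherens junction genes numbered 10 tested, with 6 higher under haloperidol (median 0.01) and 8 under olanzapine (median 0.25). Caveolar and vesicle genes had medians of -0.04 and 0.19 over 9 genes. Basement membrane genes had medians of -0.17 and -0.28 over 6. Growth and guidance signals of vessels (VEGF, Tie, Notch and BMP pathway genes) had medians of 0.22 and 0.30 over 15, and 7 genes of the Wnt pathway that builds the barrier had 0.12 and 0.46. None of these genes was called. Id1, a target of BMP signals, was at 2049 to 2674 CPM in placebo mice and 3862, 3878 and 3127 in haloperidol mice, a log2 fold change of 0.68 ± 0.20 (edgeR adjusted p 0.547).

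Interferon and MHC class I genes differed in sign between the drugs, with none past the test. Of 17 tested, 16 were lower under haloperidol than placebo (median -0.37) and 12 were higher under olanzapine (median 0.15). Between the drugs 16 of 17 were lower in haloperidol, with a median of -0.49 beside 0.03 over all genes. The medians against placebo were -0.32 and 0.16 without the shared cells of placebo 5. Without any shared cell the haloperidol median was -0.21, with 4 of 13 tested genes higher and 9 lower. Isg15, a ubiquitin-like protein induced by interferon, was at 409, 372, 56, 205 and 279 CPM in placebo mice, 88.8, 250 and 97.7 in haloperidol mice and 516, 513 and 430 in olanzapine mice. The olanzapine mice lie above all others. Its log2 fold change between haloperidol and olanzapine was -1.70, with an edgeR adjusted p of 0.71. Psmb8, a subunit of the immunoproteasome, had a log2 fold change of -1.22 ± 0.44 under haloperidol, and Gbp7, an interferon-induced GTPase, one of -1.32 ± 0.45.

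Immediate early and heat shock genes were mostly higher under olanzapine, with 0 called. Of 15 immediate early genes, 13 were higher under olanzapine (median 0.61) and 5 under haloperidol (median -0.05). Of 8 heat shock genes, 7 were higher under olanzapine (median 0.53) and 6 under haloperidol (median 0.21). Immediate early medians were 0.56 and -0.074 and heat shock medians 0.58 and 0.10, in the same order, without the shared cells of placebo 5. Hspa8, the constitutive chaperone of the cytosol, was at 1030, 536, 644, 1151 and 698 CPM in placebo mice, 1225, 1710 and 1319 in haloperidol mice and 2151, 1095 and 1085 in olanzapine mice. The haloperidol mice lie above all placebo mice. Its log2 fold changes were 0.80 ± 0.27 and 0.87 ± 0.26 (edgeR adjusted p 0.547 and 0.172).

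The haloperidol effect on Hspa8 differed between members and astrocytes by 1.50 ± 0.27, with an edgeR adjusted p of 4.88e-05, and by 1.40 with 0.00328 without the shared cells of placebo 5. In astrocytes its log2 fold change was -0.71 (adjusted p 0.764). Of 10 tested glucocorticoid-responsive genes, all were higher under haloperidol (median 0.58) and 7 under olanzapine (median 0.30), with 0 called. These medians were 0.60 and 0.27 without the shared cells of placebo 5. Without any shared cell the haloperidol median was 0.28, with 7 of 8 tested genes higher. Tsc22d3, induced by glucocorticoids in many cells, had log2 fold changes of 0.82 ± 0.32 and 0.71 ± 0.32. Mt1, a metal-binding metallothionein, had 0.64 ± 0.26 and 0.19 ± 0.27.

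Ribosomal protein genes were lower in both drugs by small amounts. Of 80 tested, 73 were lower under haloperidol (median -0.20) and 80 under olanzapine (median -0.35), and none was called. Without any shared cell 41 of 80 were higher under haloperidol (median 0.00) and 18 of 80 under olanzapine (median -0.14). Nuclear genes of oxidative phosphorylation had medians of -0.09 and -0.28 over 72. Genes of cholesterol and fatty acid synthesis, a group these drugs are known to act on in other cells, and receptors for dopamine, serotonin, histamine, noradrenaline and acetylcholine had too few counts to be tested. Of 20 receptor genes in the table, 13 had no UMI in the members of the 11 mice.

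**Figure D5:**
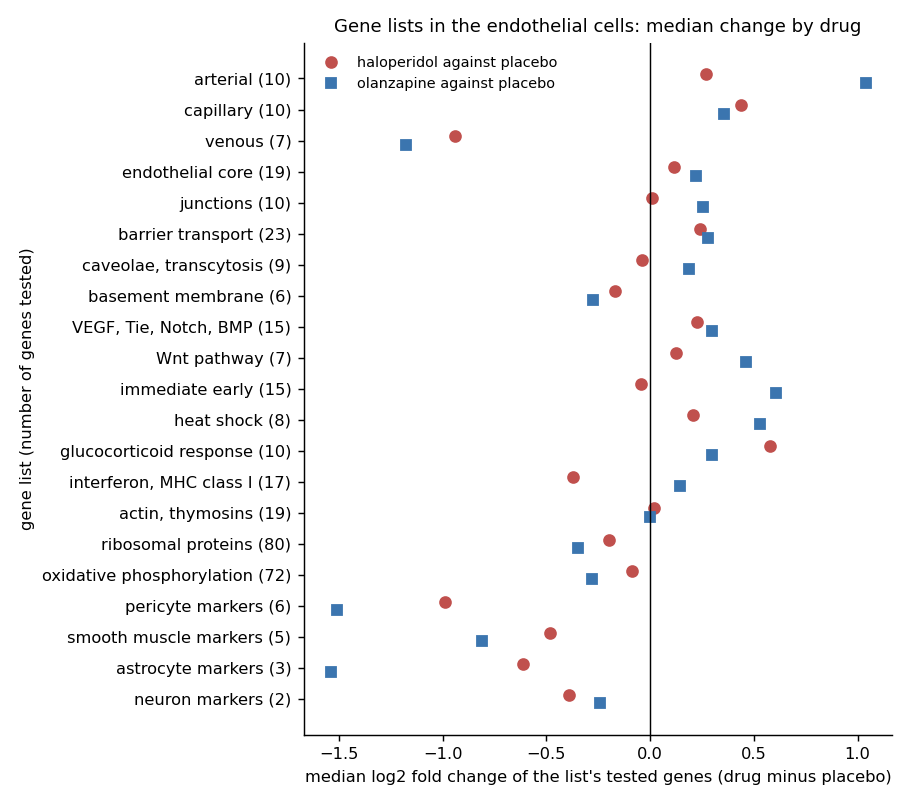
Each row is a gene list with its number of tested genes, and the horizontal axis gives the median log2 fold change of those genes in haloperidol (circles) and olanzapine (squares) against the same placebo mice. Venous genes and the markers of pericytes and astrocytes lie far to the left in both drugs, with -1.18, -1.51 and -1.54 under olanzapine, and of the lists drawn here arterial genes lie farthest to the right under olanzapine at 1.04. The venous medians are the values of Slc38a5, a gene known from earlier results.

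Members with many mural UMIs were a smaller share in the drug mice, while the mural sum per UMI overlapped between groups. The rule itself used M, so these values are a description and not a result. The shares are also not corrected for depth. Members with M of 10 or more held a median of 7982 UMIs, against 1774 in the other members. Members with M of 10 or more made up 14.7, 26.1, 20, 17.2 and 27.8% of the members in placebo mice, 13.9, 9.68 and 0% in haloperidol mice 3 to 5, and 2.17, 6.25 and 5% in olanzapine mice 3 to 5. Per 1000 member UMIs, M summed to 1.99, 3.69, 1.70, 3.04 and 2.79 in the placebo mice. It was 1.38, 1.71 and 0 in haloperidol mice 3 to 5, and 1.275, 1.805 and 0.566 in olanzapine mice 3 to 5. Haloperidol 4 and olanzapine 4 thus lie above placebo 3. The summed level of 10 pericyte markers outside the rule was 2452 to 4812 CPM in placebo and 1137 to 1699 in olanzapine members. In haloperidol members it was 50.8, 2914 and 3028 CPM from lowest to highest, the last 2 within the placebo range. All 6 tested pericyte markers and all 5 smooth muscle markers had negative log2 fold changes in both drugs, with pericyte medians of -0.99 and -1.51. Astrocyte markers summed to 641 to 1464 CPM in placebo and 434 to 869 CPM in olanzapine members. The 3 perivascular macrophage markers in the table, of 7 listed, were at 0 in every mouse. The part of these cells in the other results was not tested, apart from the fits on members with M and F of 0.

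Pdgfrb, the receptor that recruits pericytes, was at 87.7, 310, 28, 171 and 353 CPM in placebo members, 97.7, 41.7 and 0 in haloperidol members and 20.6, 34.2 and 0 in olanzapine members. Placebo 3 overlaps the mice of both drugs, and placebo 1 lies below haloperidol 3. Its log2 fold change under olanzapine was -3.51 ± 0.84 (edgeR adjusted p 0.163). Rgs5, a pericyte regulator of G protein signals, was at 1439 to 2517 CPM in placebo members and at 729, 684 and 729 in olanzapine members. Vtn, a gene of the mural sum, was at 497 to 2404 CPM in placebo, 0 to 876 CPM in haloperidol and 206 to 1129 CPM in olanzapine members.

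Drug effects in the endothelial cells were set against those in astrocytes and mural cells of the same mice. The difference of effects from astrocytes passed the test for 5 of 4545 genes (0.11%) under haloperidol and 14 (0.308%) under olanzapine, and for 3 (0.0649%) and 7 (0.151%) without the shared cells of placebo 5. From mural cells it passed for 19 of 2301 genes (0.826%) under olanzapine, with 3 mice in each group, and for 7 (0.367%) without those cells. Within astrocytes alone, 1 of 5374 genes (0.0186%) was called under haloperidol and 0 under olanzapine, and within mural cells 0 under olanzapine. One of the 19, Acta2, is a gene of the rule and is not a result. Haloperidol was not set against mural cells, because the plan asked for 3 mice with 10 cells of both kinds in each group and only 2 haloperidol mice had them. Single mice moved these counts. Leaving out olanzapine 3 turned the 19 into 1 and the 14 into 2, and leaving out olanzapine 5 turned the 19 into 44. Leaving out placebo 5 gave 4 for the 19 and 8 for the 14, leaving out placebo 4 gave 29 for the 19, and leaving out placebo 2 gave 5 for the 14. The 5 turned into 13 once haloperidol 5 was dropped and into 3 once placebo 1 was dropped.

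Under olanzapine, the mural gene Pdgfrb differed from its effect in astrocytes by -3.39 ± 0.60 (adjusted p 4.46e-05) and from its effect in mural cells by -3.29 ± 0.76 (adjusted p 0.0228). Against mural cells it was -2.60 without the shared cells of placebo 5 (adjusted p 0.133), -3.24 with RLE scaling (0.051), -2.27 without placebo 5 (0.335) and -3.65 without olanzapine 3 (0.274). Myl9, a myosin light chain of smooth muscle, differed from its effect in mural cells by -2.53 ± 0.41 (adjusted p 0.000721), with 0.0494 without those cells, 0.0555 without placebo 5 and 0.0791 without olanzapine 3. In the mural cells themselves Pdgfrb had a log2 fold change of -0.27 and Myl9 one of 0.74, neither called by edgeR (adjusted p 0.88 and 0.574). Without correction for depth, members with M of 10 or more were a larger share of the placebo members. Their part in these differences was not tested. Adamts1, a secreted metalloprotease and the gene with the second smallest p under olanzapine, differed from its effect in astrocytes by 2.45 ± 0.59 (adjusted p 0.0205, and 0.0505 without the shared cells of placebo 5). That call was also lost when placebo 1, placebo 2, olanzapine 3 or olanzapine 5 was left out (adjusted p 0.0951, 0.276, 0.476 and 0.0778).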

How the data were processed

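The deposited table holds whole-number UMI counts per gene and cell for 15932 genes, with each cell's mouse, drug and class as the authors recorded them; the authors' steps are known only in part, as Cell Ranger, Seurat and mm10 per the submitters' processing notes, with no further settings named there. Every deposited cell already had at least 501 genes. Cells over 20% mitochondrial UMIs (23) and doublets called per mouse by Scrublet in scanpy 1.11.5 were removed; the doublet call on 1 cell of olanzapine 4, not an endothelial one, turned with numerical rounding. Shared cells were found by identical barcodes in different mice. Counts of members were summed per mouse and tested with the robust quasi-likelihood test of edgeR 4.0.16 (R 4.3.3) in 1 fit of the 3 groups, after TMM scaling and the low-count filter filterByExpr, two-sided, with Benjamini-Hochberg adjustment over all tested genes. The mouse is the replicate, with its own well. Differences of effect were tested in the same tool in 1 model of both cell types with the mouse as a block. Shares were compared by exact permutation over mice (scipy 1.17.1). Levels are CPM of member UMIs, with TMM scaling for single genes and without it for summed lists. DESeq2 1.42.0, other scalings and filters, other member rules and leaving out each mouse were tried. Simulated counts were used to test the scripts. Depth per mouse was 19700 to 183090 member UMIs in the tested mice.

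Genes named are the 15 of the rule, the 10 with the highest level, all tested zonation genes, called genes or else the 10 smallest p per comparison, up to 4 per list by p, and Tmsb10, Vwf and Slc38a5; a few others (Nr1d1, Arntl, Abcb1a, Rgs5) were added after their values were seen, and some genes the rule names are not reported here. Members and lists were chosen with earlier results of these data known.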

Additional observations from a re-analysis of the deposited data

Results flagged for a closer look

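Of 95 gene levels checked over the 5 placebo mice, 4 had one mouse far from the others, and chance flags about 1 in 20. Cox6c, a subunit of cytochrome oxidase, was highest in placebo 5 at 1568 CPM, with the nearest mouse at 1096. Lef1, a transcription factor of the Wnt pathway, was lowest in placebo 2 at 112.9 CPM, with the nearest at 246.3. Lgals1, the lectin galectin 1, was highest in placebo 3 at 475.6 CPM, with the nearest at 156. Rgcc, a cell cycle regulator, was highest in placebo 4 at 432.9 CPM, with the nearest at 303.8.

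Drug effects that differed between the endothelial cells and another cell type of the same mice were picked out by edgeR's test of the difference (adjusted p under 0.05). Under haloperidol against placebo, set against astrocytes, the differences in log2 fold change were -2.28 for Tmsb10, 1.50 for Hspa8, 1.28 for Slco1c1 and -2.80 for the dynamin gene Dnm3 (adjusted p 0.0347). Dnm3 was -1.47 without haloperidol 3 (adjusted p 0.905) and had an adjusted p of 0.0969 without the shared cells of placebo 5, 0.196 without placebo 1, 0.0764 without placebo 2 and 0.141 without placebo 5. Under olanzapine, set against astrocytes, they were -5.10 for Lgals1, -3.39 for Pdgfrb, -2.06 for Atp1b2, 2.05 for Dbp, 2.45 for Adamts1, 1.05 for Hspa8 and 1.74 for Clu, with adjusted p from 4.46e-05 to 0.0322. Without the shared cells of placebo 5, the adjusted p was 0.126 for Hspa8, 0.0628 for Atp1b2 and 0.0505 for Adamts1. Without olanzapine 3, Pdgfrb alone of these 7 genes kept its call, Lgals1 being -3.55 (adjusted p 0.484) and Clu 0.98 (adjusted p 0.906). Under olanzapine, set against mural cells, they were -5.51 for Lgals1, -2.53 for Myl9, -3.30 for the tropomyosin gene Tpm2, -1.51 for the actin-binding gene Cald1 and -3.29 for Pdgfrb. Without the shared cells of placebo 5 the adjusted p was 0.133 for Lgals1, 0.0607 for Tpm2, 0.0954 for Cald1 and 0.133 for Pdgfrb, and Myl9 kept its call at 0.0494. Without olanzapine 3 none of the 5 was called (adjusted p 0.0791 to 0.469), with Lgals1 at -4.02. Lgals1 had a single UMI in the olanzapine members and 68 in the placebo members, a ratio of rates of 0.0374 (exact 95% interval 0.000932 to 0.215, counting error only).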

How the results depend on the processing

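The numbers of mice and members set the precision, since 11 mice entered the tests and olanzapine and haloperidol had 3 each. Called genes under haloperidol went from 0 to 6 without a filter on low counts and to 2 in all cells of the class other. Under olanzapine the single call became 31, 10 and, with only the 2 groups compared, 4. It became 0 without the shared cells of placebo 5 and 0 without all shared cells, alternatives chosen after seeing the data, and 0 to 3 when each mouse was left out in turn. The 19 differences from mural cells became 7 without the shared cells of placebo 5 and 1 to 44 with a mouse left out. The 5 differences from astrocytes under haloperidol became 2 without a filter, 3 without those cells and 3 to 13 with a mouse left out, and the 14 under olanzapine became 4, 7 and 2 to 21. The share of olanzapine against placebo differed by -5.53 points, by -5.12 without all shared cells (adjusted p 0.0238) and by -6.65 to -4.09 with a mouse left out, by -3.83 with doublets kept (adjusted p 0.119) and by -2.91 in members with M and F of 0 (adjusted p 0.0952). Haloperidol against placebo was -3.13 points, and -0.74 with M and F of 0. Haloperidol minus olanzapine was 2.41 points, 0.64 with doublets kept (exact permutation p 0.603), and 1.73 to 3.25 with a mouse left out, with an adjusted p of 0.0357 without haloperidol 1.

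Signs turned in all cells of the class other, which adds mural cells and fibroblasts. Under haloperidol the log2 fold changes there were -0.079 for Egfl7, -0.10 for Mt1, 0.23 for Meg3 and 0.13 for Rarres2. Under olanzapine they were 0.29 for Cald1, -0.23 for Slc2a1, -0.18 for Sox17, -0.068 for Acvrl1, 0.0092 for Pdgfrb, 0.17 for Ndufa4l2, 1.16 for Myl9, 1.83 for Tpm2, 0.044 for Atp1b2, 1.20 for Meg3, 0.27 for Rarres2, 0.15 for Lgals1, -0.020 for Slco1a4, -0.11 for Cavin2 and 0.33 for Cox4i2. The cause was not tested. A minimum of 20 members per mouse was not run. No paired analysis was possible because replicate numbers only name the mice of a group in the order of deposit.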
